A study of Homo sapiens with 52 samples.

Results

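The genes of the 4 human HOX clusters were followed through 52 poly-A RNA-seq libraries of fusion-positive rhabdomyosarcoma (FP-RMS) cells, a muscle-lineage tumour line carrying the PAX3-FOXO1 fusion. Members were all gene names made of HOX, a cluster letter from A to D and a number, which gave 39 of the 27043 genes listed in every table: 11 in HOXA, 10 in HOXB, 9 in HOXC and 9 in HOXD. The screen exposed cells for 6 h to 20 small molecules, each at a high and a low dose with 1 library per dose, beside 4 libraries of the solvent DMSO, 2 at 0.2% and 2 at 0.1%. Doses were 10 and 1 µM, except for LAQ824, Cpd50 and GSKJ4, which were used at 5 and 0.5 µM. A separate 6 h experiment held N1302 at 1 µM and its 0.1% DMSO control, and a time course held entinostat at 1 µM and DMSO at 1, 6 and 24 h, with 1 library for each condition. The labels gave HDAC as the target of LAQ824 and N1302, HDAC6 of WT161, HDAC4/5 of MC1568, HDAC1/2 of Merck60, HDAC8 of OJI-1 and HDAC1/2/3 of entinostat. They gave EZH2 for EZ-005, EZH1 for UNC1999 and DOT1L for SGC0946. No animal, knockout or transgene was involved, and all groups shared the same culture in DMEM with serum. Titles of the screen libraries said RH41, whereas the cell line label said RH4 in all libraries, so the screen is called RH41-titled and the other experiments RH4-titled.

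HOX genes encode homeodomain transcription factors that lie in 4 tightly packed clusters, and their order along a cluster follows the order of the body regions they pattern. Genes with the same number in different clusters are paralogs: low numbers act in the head and anterior trunk, high numbers in the posterior trunk, the distal limb and the urogenital tract. Polycomb repressive complex 2, with EZH2 or EZH1 as its catalytic subunit, places H3K27 methylation over silent HOX genes, whereas MLL complexes and the H3K79 methyltransferase DOT1L are linked with their active state. Histone deacetylases (HDACs) remove acetyl groups from histones and other proteins.

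The libraries held between 5737939 and 41415071 reads (median 15055060), worked out from the step size of the TPM values (transcript abundance scaled by length and library). The summed TPM of 10 rhabdomyosarcoma markers, among them MYOD1, MYOG and PAX3, ranged from 1057 to 3362 over the 52 libraries, against 0 to 0.662 for epithelial, 0 to 3.86 for haematopoietic and 0.144 to 2.41 for endothelial markers. One member of the rhabdomyosarcoma list, CDH3, read below 1 TPM in every DMSO library. In bulk RNA, fewer cells of a type and less RNA per cell cannot be told apart. The run code in the column names differed between compounds: 14 compounds, including EZ-005, UNC1999, SGC0946, WT161, Merck60, OJI-1 and Bromosporin, shared the code C5JW5ACXX, which no DMSO library carried. The part of the run in differences between these compounds and DMSO was not tested, and values within that run are given beside the results they touch. The 2 libraries of a DMSO concentration differed by run and otherwise within sampling noise, and were counted as 1 sample. The study's methods speak of replicate experiments for a compound and for DMSO without saying whether these were separate cultures, so p-values measure only the spread between these libraries, which may be technical.

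Promoter sequences are shown for 4 HOX genes picked from those called under LAQ824: HOXA13 and HOXD1 rose, and HOXA4 and HOXD13 fell. They are not the extremes of the response, since HOXB7, among others, fell further than HOXA4 and HOXD13. Each run covers 250 bases before to 50 bases after an annotated transcript start, written 5′ to 3′ on the gene's strand, from RefSeq on GRCh38.p14, a later build than the hg19 of the expression tables. HOXA13 (chr7:27200042-27200341, minus strand) and HOXA4 (chr7:27130708-27131007, minus strand) belong to the HOXA cluster. HOXD1 (chr2:176188418-176188717, plus strand) and HOXD13 (chr2:176092471-176092770, plus strand) are the first and last genes of the HOXD cluster. Capitals mark matches, on either strand, to the letters GGGCGG known from binding sites of Sp1, here called GC boxes, or to the TATA box letters TATAAA.
HOXA13: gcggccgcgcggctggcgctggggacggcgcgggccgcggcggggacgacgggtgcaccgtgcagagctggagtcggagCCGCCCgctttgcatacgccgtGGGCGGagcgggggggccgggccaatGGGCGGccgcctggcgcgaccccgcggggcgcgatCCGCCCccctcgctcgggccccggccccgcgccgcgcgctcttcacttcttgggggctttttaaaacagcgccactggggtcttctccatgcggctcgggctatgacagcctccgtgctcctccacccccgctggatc
HOXA4: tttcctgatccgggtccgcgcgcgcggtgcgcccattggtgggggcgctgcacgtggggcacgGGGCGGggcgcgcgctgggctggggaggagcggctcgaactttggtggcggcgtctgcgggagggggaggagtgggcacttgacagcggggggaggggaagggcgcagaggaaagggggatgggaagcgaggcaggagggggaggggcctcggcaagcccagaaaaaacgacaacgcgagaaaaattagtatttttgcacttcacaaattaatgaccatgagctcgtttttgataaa
HOXD1: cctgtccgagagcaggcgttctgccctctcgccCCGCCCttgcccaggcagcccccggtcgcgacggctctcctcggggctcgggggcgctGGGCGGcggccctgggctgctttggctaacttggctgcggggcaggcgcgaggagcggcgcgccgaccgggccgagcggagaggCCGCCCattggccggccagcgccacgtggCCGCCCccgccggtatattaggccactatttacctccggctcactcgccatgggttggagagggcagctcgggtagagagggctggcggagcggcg
HOXD13: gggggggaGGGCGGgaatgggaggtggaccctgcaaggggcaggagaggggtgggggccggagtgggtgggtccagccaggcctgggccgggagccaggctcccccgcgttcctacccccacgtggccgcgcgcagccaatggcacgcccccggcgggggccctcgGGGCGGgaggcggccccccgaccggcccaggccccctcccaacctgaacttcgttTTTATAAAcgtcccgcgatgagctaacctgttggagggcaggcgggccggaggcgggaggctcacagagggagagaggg
The HOXA13 and HOXD1 windows each held 4 GC boxes, the HOXD13 window held 2 and the HOXA4 window held 1. HOXD13 alone of these 4 held the TATA box letters, with 2 matches that overlap on opposite strands. A promoter was available for 20 of the 39 genes, as 27 windows. Of these, 13 held GGGCGG, 5 TATAAA, 7 CAGCTG (an E-box letter order bound by myogenic factors) and 2 TAATTA (a homeodomain core), where 45.0%, 11.5%, 18.0% and 4.84% of all 35116 windows of the same length held them. The median number of CG pairs was 22 in the HOX windows and 14 over all windows. Such matches describe letters in a window and not bound sites.

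The first question was which HOX genes these cells expressed without a compound. HOXB7 was the most abundant member in DMSO, and 15 of the 39 genes reached a mean of 5 TPM in the RH41-titled controls: 6 in HOXA, 3 in HOXB, 3 in HOXC and 3 in HOXD. A further 5 lay between 1 and 5 TPM, and 19 lay below 1 TPM. The cluster sums were 87.4 TPM for HOXB, 74.7 for HOXA, 42.8 for HOXC and 28.0 for HOXD, and all 39 genes together made 233 TPM. TPM is scaled by transcript length, so levels can be compared between genes. Expressed genes were not contiguous: HOXA9 at 0.0631 TPM lay between HOXA7 at 19.6 and HOXA10 at 7.79 TPM, and HOXB8 at 0.113 TPM and HOXB9 at 1.45 TPM lay between HOXB7 and HOXB13. HOXB1 had no read in any of the 52 libraries. HOXB6 and HOXD3 had none in the 8 DMSO libraries.

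**Figure D1:**
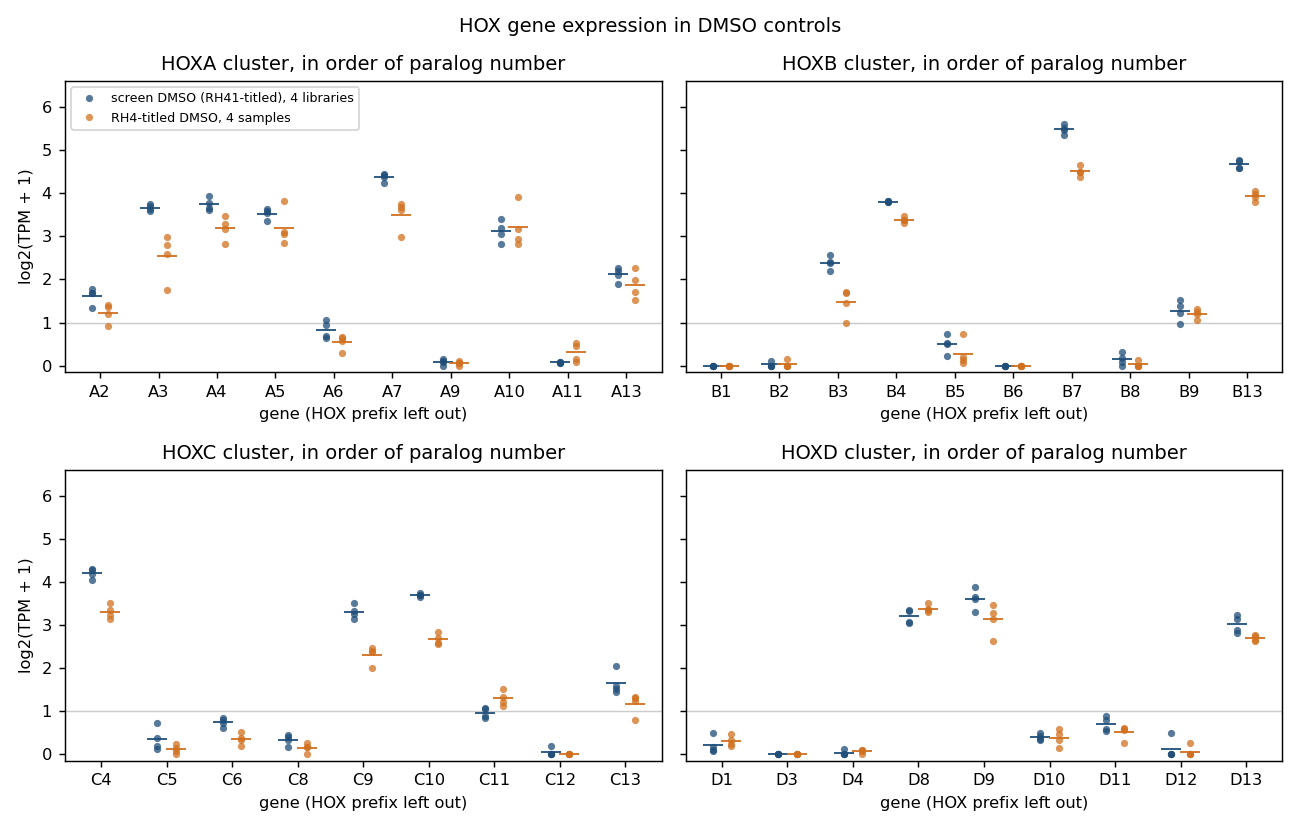
Log2(TPM + 1) of the HOX genes reported, in DMSO, in order of paralog number within each cluster, for RH41-titled and RH4-titled controls; points are libraries and dashes are group means. HOXB7 and HOXB13 stand highest, and HOXA9, near 0, lies between expressed neighbours.

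In the HOXB cluster (hg19, chr17:46606807-46806111, minus strand), HOXB7 read 43.2 and 47.5 TPM in 0.2% DMSO, 39.9 and 44.3 TPM in 0.1% DMSO, and 24.3, 21.4, 21.5 and 19.9 TPM in the RH4-titled controls (the N1302 control, then 1, 6 and 24 h of the time course). HOXB13, a posterior gene known from the prostate, read 25.6, 22.8, 23.1 and 26.2 TPM, against 14.8, 12.9, 15.7 and 14.0 TPM in the same order. HOXB4, used to expand blood stem cells, read 13.0, 13.1, 12.8 and 13.0 TPM, against 9.40, 8.95, 10.0 and 9.32 TPM. For all of these, the lowest RH41-titled library lay above the highest RH4-titled one. The share of all genes separated in this way was not counted, so these values cannot say whether the separation is particular to HOX genes. The mean of HOXB7 was 43.7 ± 2.29 TPM (SD, n = 2 DMSO concentrations) and 21.8 ± 1.87 TPM (SD, n = 4), and it differed from the next gene, HOXB13 at 24.4 ± 0.323 TPM, by more than these spreads in the screen.

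In the HOXA cluster (chr7:27132614-27239725, minus strand), HOXA7 led with 19.8, 20.3, 17.7 and 20.7 TPM in the RH41-titled controls, and 6.86, 11.3, 11.8 and 12.4 TPM in the RH4-titled ones. HOXA4 read 14.4, 12.7, 11.6 and 11.3 TPM, against 6.10, 7.98, 8.69 and 10.0 TPM. HOXA3, which patterns the pharyngeal arches, read 12.4, 10.9, 11.5 and 11.99 TPM, against 2.37, 5.02, 6.00 and 6.97 TPM. The control of N1302 stood apart from the time course for several of these genes, being lowest for HOXA3, HOXA4 and HOXA7 and highest for HOXA5 and HOXA10. HOXA5, a regulator of lung development, read 10.9, 10.7, 11.3 and 9.28 TPM, against 13.1, 6.20, 7.31 and 7.51 TPM. HOXA10, needed for the uterus, read 7.34, 9.63, 6.03 and 8.14 TPM, against 14.0, 6.02, 8.04 and 6.70 TPM. Some of these levels are uncertain in source, since exonic bases lie within exons of another gene for 62.5% of HOXA7 (HOXA-AS3), 47.8% of HOXA4 and 26.3% of HOXA10, and strand in counting was not stated.

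In the HOXC cluster (chr12:54332576-54449814, plus strand), HOXC4 read 15.4, 17.3, 18.7 and 18.5 TPM, against 7.81, 8.46, 9.20 and 10.4 TPM in the RH4-titled controls. HOXC10, a hindlimb and lumbar gene, read 12.3, 11.9, 11.9 and 11.6 TPM, against 6.15, 4.89, 5.44 and 4.97 TPM. HOXC9, a thoracic gene, read 10.3, 8.61, 7.87 and 9.02 TPM, against 4.27, 3.02, 4.15 and 4.49 TPM. The groups did not overlap for any of these, and again the share of all genes that did not overlap was not counted. The listed spans of HOXC4, HOXC5 and HOXC6 share their first base, and 67.3% of the exonic bases of HOXC5 are shared, so the split of reads between these genes is uncertain.

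In the HOXD cluster (chr2:176957532-177055635, plus strand), HOXD9 read 8.88, 13.8, 11.1 and 11.6 TPM, against 5.23, 10.1, 7.77 and 8.65 TPM. HOXD8 read 9.08, 9.11, 7.27 and 7.38 TPM, against 10.4, 8.78, 9.13 and 9.37 TPM. HOXD13, a digit and genital tract gene, read 8.37, 6.03, 7.86 and 6.35 TPM, against 5.81, 5.29, 5.20 and 5.65 TPM. The groups overlapped for HOXD8 and HOXD9. Between HOXA3 (11.7 ± 0.0697 TPM), HOXC10 (11.9 ± 0.244) and HOXD9 (11.4 ± 0.00708) the order of the means did not hold in every library, and HOXD9 alone ranged from 8.88 to 13.8 TPM.

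The solvent concentration was compared first. None of the 26 members tested was called between 0.2% and 0.1% DMSO by limma, where the 4 libraries entered as 2 against 2 that also differ by run within each concentration, 1 member had an unadjusted p under 0.05, and 0% of all 16359 genes were called. Tested genes had at least 1 TPM in 2 or more libraries, and called means an adjusted p under 0.05 (Benjamini-Hochberg over all genes tested). The 13 HOX genes under that filter were HOXA9, HOXA11, HOXB1, HOXB2, HOXB5, HOXB6, HOXB8, HOXC5, HOXC8, HOXC12, HOXD3, HOXD4 and HOXD12, of which none exceeded 1 TPM in any library.

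The RH41-titled controls were then set against the RH4-titled ones. HOX RNA was higher in the RH41-titled libraries, with sums of 233 and 144 TPM. Of 26 members, 6 were called higher and 0 lower, where 11.9% of all genes were called, 8.12% higher and 3.75% lower. HOXC10 was higher by 1.03 ± 0.14 (log2 difference ± SE; limma adjusted p = 0.0131), HOXC9 by 1.00 ± 0.177 (limma adjusted p = 0.0252) and HOXB7 by 0.98 ± 0.109 (limma adjusted p = 0.00765). HOXC4 and HOXB13 followed at 0.89 and 0.73. The median member differed by 0.41 and the median of all genes by 0.13. With only the 6 h controls on the RH4-titled side, 0 members were called. Without the control of N1302, 14 were called, and without either DMSO concentration of the screen, 0. Experiment and title cannot be told apart.

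Changes were then taken for each compound against DMSO on the log2(TPM + 1) scale, which understates changes of genes with low TPM. The 2 doses of a compound served as its 2 samples, so that the spread includes dose. LAQ824, Bromosporin (a pan-bromodomain inhibitor), WT161 and MC1568 moved the HOX genes most, with 15, 14, 8 and 6 of the 26 called. Cpd50 (labelled pan-Jumonji) moved 3, UNC0638 (labelled KMT1C, the H3K9 methyltransferase G9a) moved 1, and the other 14 compounds moved none. In all, 14 of the 47 calls were higher and 33 lower. The compounds with most HOX calls were also those with most calls overall: all genes were called at 53.1% for LAQ824, 35.8% for Bromosporin, 32.0% for WT161, 22.5% for MC1568, 12.1% for UNC0638 and 5.70% for Cpd50.

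**Figure D2:**
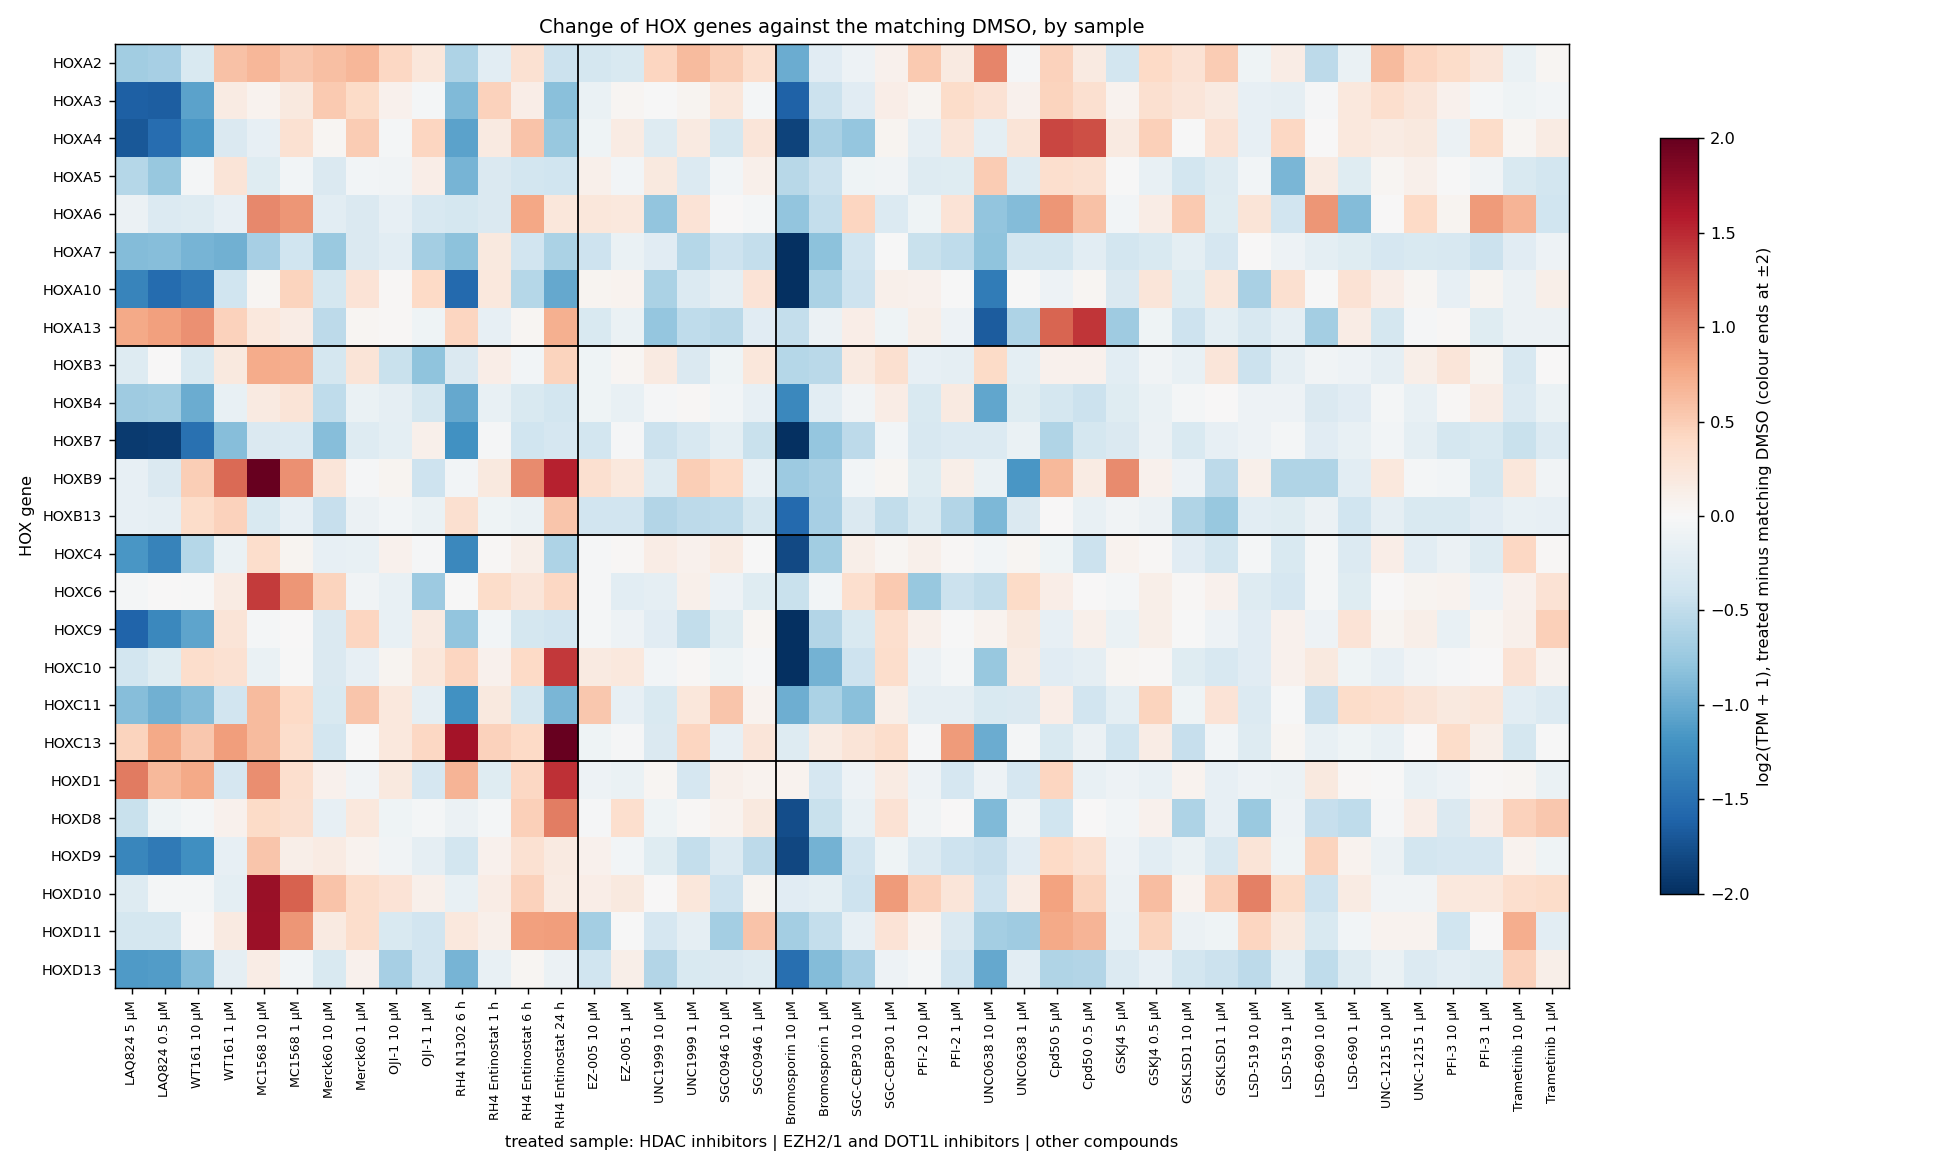
Log2(TPM + 1) of the tested HOX genes reported, in each treated library minus the mean of its DMSO controls, with genes in cluster order and libraries grouped by target class; the colour scale is in log2 units and ends at 2 in either direction. LAQ824 and Bromosporin show the most genes below DMSO, MC1568 shows a block above it, and the EZH2, EZH1 and DOT1L inhibitors stay near 0.

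LAQ824, a hydroxamate inhibitor of many HDACs, lowered 12 and raised 3 of the 26 members, where 24.6% of all genes fell and 28.4% rose. The median member fell by 0.51, while the median of all genes was 0.06. The 12 that fell came from all clusters: HOXA3, HOXA4, HOXA5, HOXA7 and HOXA10, HOXB4 and HOXB7, HOXC4, HOXC9 and HOXC11, and HOXD9 and HOXD13. The 3 that rose, HOXA13, HOXC13 and HOXD1, were low in DMSO, and the first 2 of them lie at the posterior end of their clusters. Of the paralogs of these 2, HOXD13 fell and HOXB13 was not called, and HOXD1 lies at the other end of its cluster.

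HOXB7, the most abundant member, read 11.3 TPM at 5 µM LAQ824 and 10.5 TPM at 0.5 µM, against 39.9 to 47.5 TPM in DMSO, a log2 change of -1.91 ± 0.325 (limma adjusted p = 2.97e-05). HOXA4 read 3.48 and 3.33 TPM, against 11.3 to 14.4 TPM, a change of -1.61 ± 0.246 (limma adjusted p = 8.19e-06). HOXA3 read 3.06 and 3.08 TPM, against 10.9 to 12.4 TPM, a change of -1.64 ± 0.287 (limma adjusted p = 4.16e-05). Both doses lay far below all DMSO libraries for these genes, and the doses differed from each other by much less than from DMSO. HOXD9 read 3.90 and 3.61 TPM and changed by -1.36 ± 0.257. HOXC9 read 2.46 and 2.84 TPM and changed by -1.45 ± 0.34. HOXC4 read 6.71 TPM at both doses and changed by -1.26 ± 0.237. These, too, lay below the lowest DMSO library at each dose. HOXD13 read 2.71 and 2.72 TPM (-1.12 ± 0.262) and HOXA10 read 2.78 and 1.77 TPM (-1.43 ± 0.345), again with no overlap with DMSO.

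Of the genes that rose under LAQ824, HOXA13 and HOXC13 were expressed in DMSO and HOXD1 was near 0 there. HOXA13, a distal limb and urogenital gene, read 6.99 and 6.03 TPM, against 2.69 to 3.81 TPM in DMSO, a change of 0.79 ± 0.259 (limma adjusted p = 0.0127). HOXD1 read 1.21 and 0.985 TPM, against 0.0617 to 0.413 TPM, a change of 0.85 ± 0.213 (limma adjusted p = 0.00164), from 1 to 5 reads in the DMSO libraries. Neither gene overlapped with DMSO. HOXD1 reached 1 TPM, the level of the filter, only under HDAC inhibitors: 5 µM LAQ824, 10 µM MC1568, N1302 and 24 h entinostat. It thus entered the tests through the libraries in which it was high, and its rise in them is not independent support. Of the exonic bases of HOXD1, 60.1% lie in exons of HAGLR, whose own change was -0.10 (limma adjusted p = 0.773). HOXC13, a hair and nail gene, read 3.59 and 3.92 TPM against 1.72 to 3.16 TPM, and its call (0.60, limma adjusted p = 0.033) was lost against the DMSO libraries of the same run (0.43, limma adjusted p = 0.129). Leaving out either LAQ824 dose left 10 members called, and leaving out 0.1% or 0.2% DMSO left 9 or 10. HOXA3, HOXA4, HOXA10, HOXB7, HOXC4, HOXC9, HOXD1, HOXD9 and HOXD13 kept their calls under every alternative of fit, scaling, filter and library that tested them, while a required log2 change of at least 1 leaves out HOXD1.

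WT161, the HDAC6 inhibitor of the screen by its label, lowered 5 members and raised 3, where 14.3% of all genes fell and 17.7% rose. HOXB7 read 15.4 TPM at 10 µM and 23.0 TPM at 1 µM, a change of -1.17 ± 0.325 (limma adjusted p = 0.00775). HOXA4 read 5.48 and 9.14 TPM and changed by -0.73 ± 0.246. HOXA10 read 2.504 and 5.07 TPM and changed by -0.91 ± 0.345. All of these lay below DMSO at both doses, and the 10 µM library was the lower in each. HOXD9 (4.17 and 9.98 TPM) overlapped with DMSO at 1 µM, and its change was -0.70 ± 0.257. HOXA13 rose to 7.82 and 4.49 TPM (0.68 ± 0.259). It lay above DMSO at each dose, as did HOXC13 at 3.88 and 4.19 TPM. Genes at which only the 10 µM library was far below DMSO and no call was made included HOXA3 (5.00 and 13.3 TPM) and HOXC9 (4.01 and 10.3 TPM). Without the 10 µM library 0 members were called, without the 1 µM library 11, and without 0.1% or 0.2% DMSO 2 or 1. Against the other 13 compounds of its run, 7 were called, without HOXA7, HOXA10 and HOXD9 (limma adjusted p = 0.179, 0.0674 and 0.111). The call of HOXA13 held in 5 of 12 alternatives and was lost with a pseudocount of 0.1 (limma adjusted p = 0.101), with median-ratio scaling (0.0505) and with no filter on low values (0.0742).

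MC1568, labelled HDAC4/5, raised 6 members and lowered none, where 19.6% of all genes rose and 2.92% fell, while the median of all genes rose by 0.26 and the median member by 0.23. The members that rose were low in DMSO: HOXB9, HOXD10, HOXD11, HOXC6, HOXB3 and HOXD1. HOXC6 read 3.45 TPM at 10 µM and 2.05 TPM at 1 µM, against 0.533 to 0.786 TPM in DMSO, a change of 1.14 ± 0.237 (limma adjusted p = 0.00136). HOXD10 read 3.37 and 1.96 TPM, against 0.253 to 0.406 TPM, a change of 1.45 ± 0.305 (limma adjusted p = 0.00149). HOXD1, which passed the filter only through HDAC inhibitor libraries, read 1.03 and 0.598 TPM, a change of 0.63 ± 0.213 (limma adjusted p = 0.0336). The 10 µM library was the higher for each, and both doses lay above DMSO. HAGLR, which shares exonic bases with HOXD1, changed by 1.47 as well. Abundant HOX genes did not follow: HOXA4 read 11.9 and 14.3 TPM, HOXC4 21.0 and 19.3 TPM, and HOXB7 36.8 and 34.8 TPM, none of them called. Without the 10 µM library 0 members were called. With a pseudocount of 0.1 in place of 1, 3 were called, without HOXC6 (limma adjusted p = 0.0519), HOXD11 (0.103) and HOXD1 (0.143).

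Merck60 (HDAC1/2) and OJI-1 (HDAC8) left no member called by limma, with 0 and 1 members at an unadjusted p under 0.05 and 0 by limma's voom fit on whole reads, where 0.116% and 0.171% of all genes were called. HOXB7 read 24.6 and 34.9 TPM under Merck60 at 10 and 1 µM (-0.56, interval -1.23 to 0.11), and 39.2 and 45.1 TPM under OJI-1. HOXA4 read 13.9 and 16.7 TPM under Merck60 and 13.1 and 15.7 TPM under OJI-1. HOXA13 read 2.29 and 3.08 TPM, and 3.80 and 2.77 TPM. HOXB7 lay below the lowest DMSO library at both Merck60 doses and at 10 µM OJI-1, and HOXA4 lay above the highest at 1 µM of either compound. The 95% interval of the change stayed within 1 unit of 0 on the log2(TPM + 1) scale for 20 of the 26 members under each compound.

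**Figure D3:**
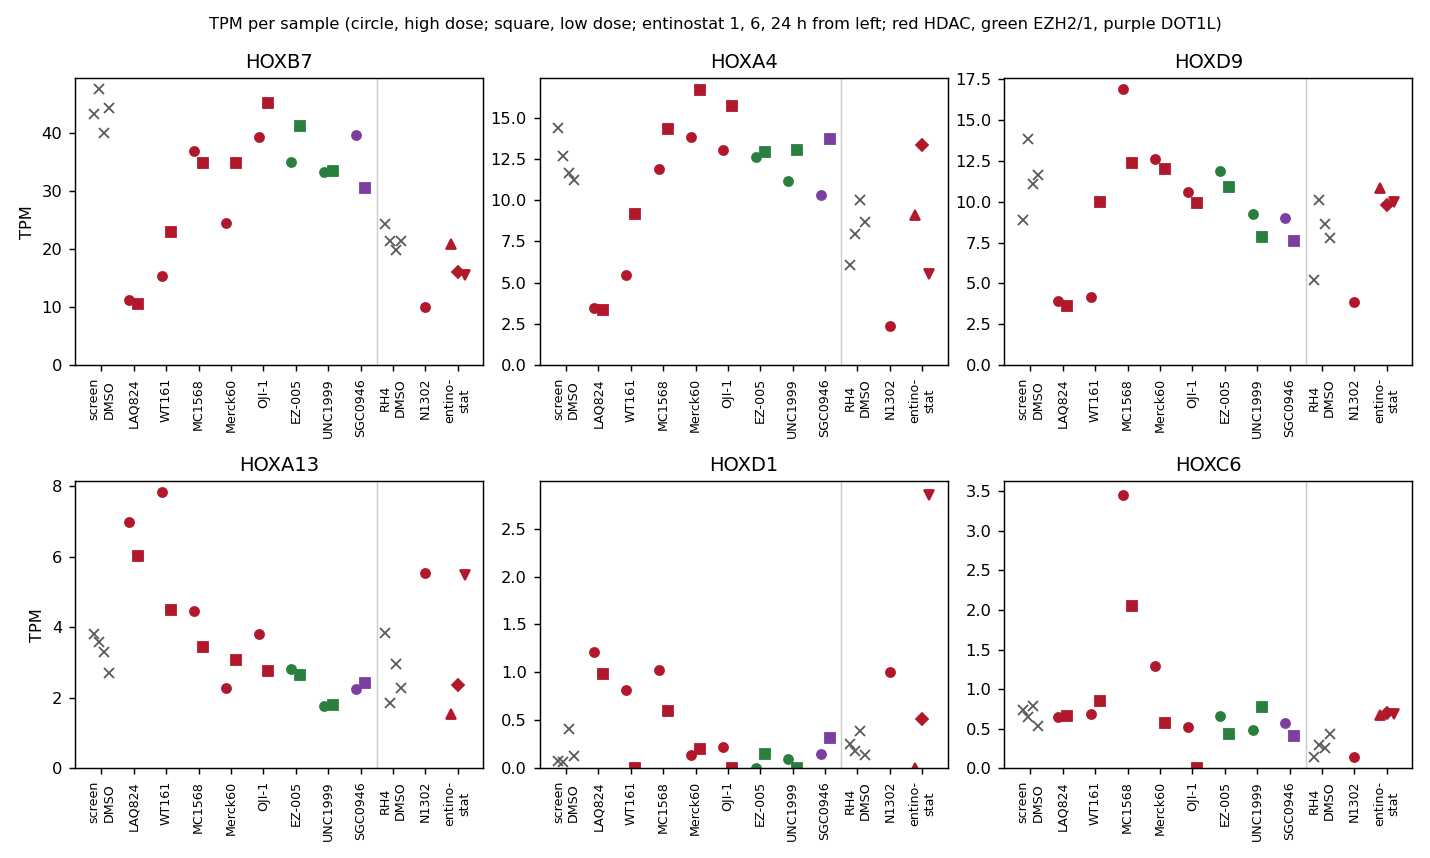
TPM of HOXB7, HOXA4, HOXD9, HOXA13, HOXD1 and HOXC6 in the DMSO, HDAC, EZH2 or EZH1 and DOT1L inhibitor libraries; each point is 1 library, with crosses for DMSO, circles for high and squares for low doses, and 3 other marks for entinostat at 1, 6 and 24 h. HOXB7, HOXA4 and HOXD9 are lowest under LAQ824 and N1302 and in part WT161, HOXA13 is highest there, and HOXC6 is highest under MC1568.

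EZ-005, UNC1999 and SGC0946, aimed at the enzymes that write the H3K27 and H3K79 marks, changed no HOX gene by the same test, and few genes at all: 0.0734%, 0.0672% and 0.183% of all genes were called. At an unadjusted p under 0.05 there were 0, 2 and 1 members, and the voom fit called 0 for each. The largest member change in either direction was 0.38, 0.64 and 0.45 on the log2 scale. The 95% interval lay within 1 unit of 0 on the log2(TPM + 1) scale for 23, 19 and 24 of the 26 members. Changes past 1 unit thus lay outside the interval of most members. By contrast, for HOXA2 and HOXA7 under SGC0946, the intervals ran from -0.29 to 1.13 and from -1.09 to 0.19. A 2-fold change in TPM moves this scale by less than 1 unit, and least for genes low in DMSO, so these intervals do not bound it for such genes. Exposure lasted 6 h, and no later time was measured for these compounds.

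Abundant members illustrate this. HOXB7 read 34.9 and 41.2 TPM under EZ-005 at 10 and 1 µM, 33.2 and 33.4 TPM under UNC1999 and 39.6 and 30.6 TPM under SGC0946. HOXA4 read 12.6 and 12.9, 11.2 and 13.0, and 10.3 and 13.7 TPM. HOXC4 read 16.0 and 18.8, 18.1 and 19.8, and 18.4 and 18.6 TPM. HOXA4 lay below the lowest DMSO library at 10 µM UNC1999 and 10 µM SGC0946, and within the DMSO range otherwise. HOXC4 lay above the highest at 1 µM EZ-005 and 1 µM UNC1999, and within the range otherwise. HOXB7 lay below the lowest DMSO library in 5 of these 6 libraries. Among the tested genes below 1 TPM in all DMSO libraries of the screen, HOXD1 read 0 to 0.319 TPM over these 6 libraries, HOXD10 0 to 0.535 TPM, HOXC6 0.404 to 0.774 TPM and HOXD11 0 to 1.44 TPM. Single libraries also stood above DMSO for HOXC11, at 1.87 TPM under 10 µM EZ-005 and 1.90 TPM under 10 µM SGC0946 against 0.802 to 1.12 TPM, and none of these genes was called. HOXA13 read 2.82 and 2.64 TPM under EZ-005, 1.76 and 1.79 TPM under UNC1999 and 2.25 and 2.42 TPM under SGC0946. Its UNC1999 values lay below all DMSO libraries, at a change of -0.64 ± 0.259 (unadjusted p = 0.0204, limma adjusted p = 0.591). HOXB13, singled out after its values were seen, was the member with the smallest unadjusted p under all of these compounds: it read 18.3 and 18.6 TPM, 15.7 and 16.7 TPM, and 16.8 and 19.1 TPM, against 22.8 to 26.2 TPM in DMSO. All 6 values lay below DMSO, at adjusted p of 0.847, 0.493 and 0.749.

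HOXB13 was low in much of the same run. Among the 28 libraries of run C5JW5ACXX, 26 lay below the DMSO mean for HOXB13 with a median change of -0.31, and in the other runs 11 of 12 with -0.17. The part of the run in these values was not tested. Over all 40 treated screen libraries, HOXA7 and HOXB7 lay below the DMSO mean of the matching concentration in 39, a count that 0.746% of all tested genes reached. HOXB13 did so in 37 (1.86% of genes) and HOXD13 in 35 (3.84%). All 40 differences rest on the same 4 DMSO libraries, so they are not independent of each other.

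The classes were compared directly, which needs no DMSO. HDAC inhibitors (mean of LAQ824, WT161, MC1568, Merck60 and OJI-1) against EZH2 and EZH1 inhibitors (mean of EZ-005 and UNC1999) gave 5 members higher and 2 lower of 26, where 35.7% of all genes were called, 20.9% higher and 14.9% lower. Doses matched except for LAQ824. HOXA13 was higher by 0.71 ± 0.153 (limma adjusted p = 0.00112), HOXD11 by 0.50 ± 0.194, HOXD1 by 0.46 ± 0.126, HOXB13 by 0.40 ± 0.119 and HOXC13 by 0.37 ± 0.138. HOXD1 had passed the filter only through HDAC inhibitor libraries. HOXB7 was lower by 0.51 and HOXC4 by 0.36. These are means over unlike compounds: HOXA13 ran from 2.29 to 7.82 TPM over the 10 HDAC inhibitor libraries and HOXB7 from 10.5 to 45.1 TPM. The count fell to 2 without the compound LAQ824, without WT161 or without the 10 µM library of UNC1999. It fell to 0 with the high doses alone, with the low doses alone, with 1 mean per compound, and within run C5JW5ACXX, where only WT161, Merck60 and OJI-1 stand for the HDAC class. The differences behind the lost calls did not all shrink: HOXA13 stood at 0.82 with the high doses, 0.71 with 1 mean per compound and 0.57 within the run, HOXD11 at 0.76 and HOXD1 at 0.63 with the high doses, and HOXB13 at 0.48 within the run.

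Against DOT1L inhibition, the HDAC mean was higher for 2 of 26 members, among them HOXA13 (0.66 ± 0.201, limma adjusted p = 0.0296), and lower for none, where 15.8% of all genes were called, 8.97% higher and 6.82% lower. Within the run, 0 were called, and single libraries left out gave 0 to 3. EZH2 and EZH1 inhibitors against the DOT1L inhibitor, all of 1 run, gave no member called by limma, 0 at an unadjusted p under 0.05 and 0 by voom, where 0.0245% of all genes were called. All 26 intervals of this difference lay within 1 unit of 0 on the log2(TPM + 1) scale, from -0.93 at HOXA2 to 0.87 at HOXD10.

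**Figure D4:**
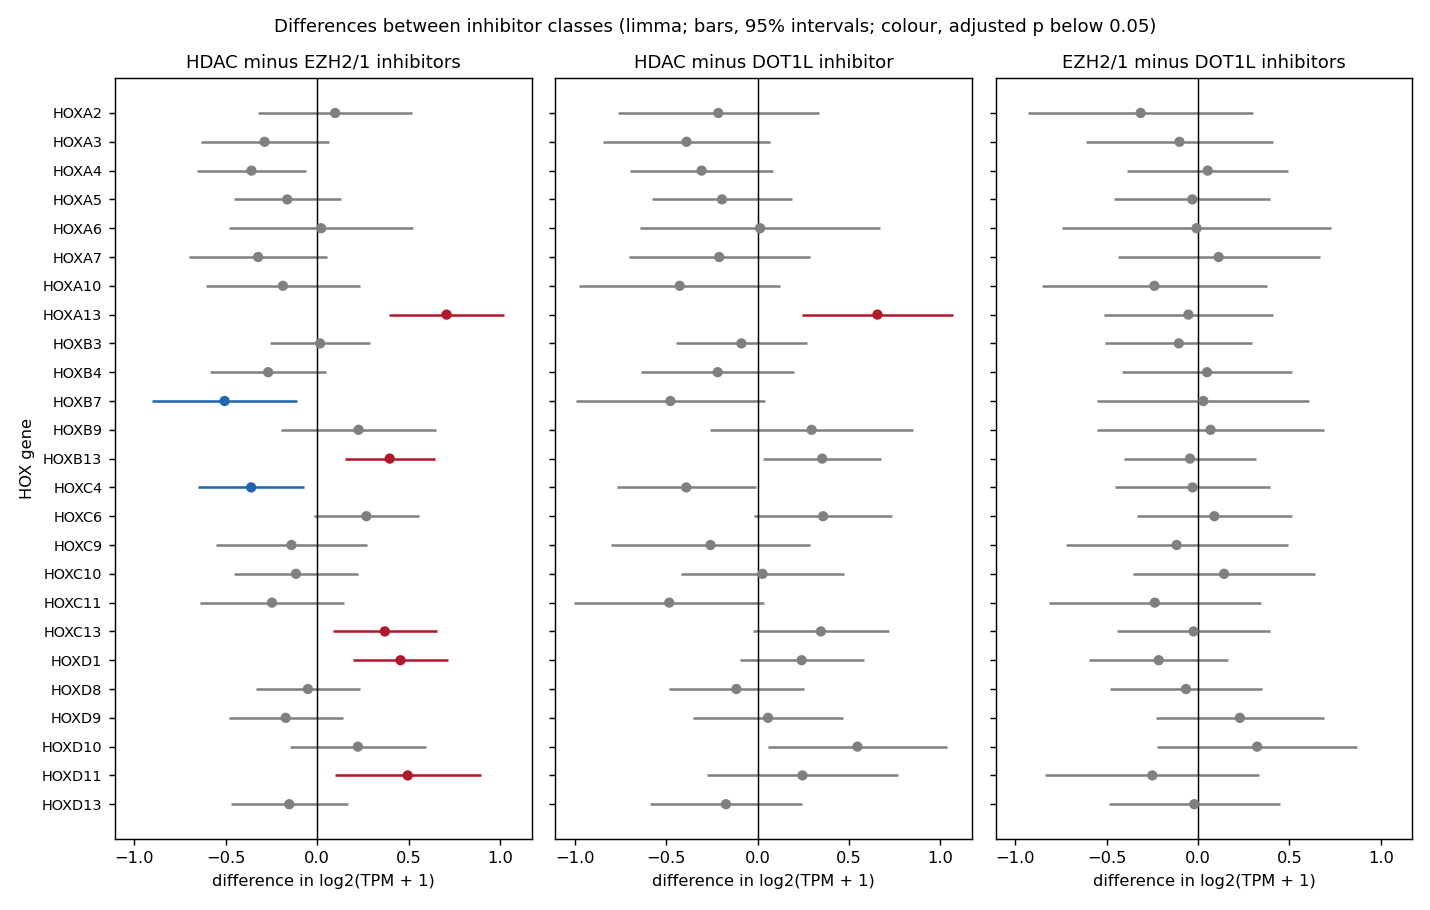
Log2 difference of the tested HOX genes reported, between inhibitor classes (HDAC against EZH2 and EZH1, HDAC against DOT1L, EZH2 and EZH1 against DOT1L), with 95% intervals from limma; coloured points are called, red higher and blue lower. HOXA13 stands highest in both HDAC contrasts, and all intervals of the last contrast stay within 1 log2 unit.

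Of the other compounds, Bromosporin lowered 14 of 26 members and raised none, where 23.4% of all genes fell and 12.4% rose, and all 26 had a change below 0. The median member fell by 0.92 and the median of all genes by 0.12. HOXB7 read 5.37 TPM at 10 µM and 24.3 TPM at 1 µM (-1.82 ± 0.325, limma adjusted p = 0.000255) and HOXA7 2.26 and 10.4 TPM (-1.76 ± 0.31, limma adjusted p = 0.000233). Both doses lay below DMSO, with the 10 µM library the lower. Without the 10 µM library, 7 members were called, and 16 against the other compounds of its run. Cpd50 raised HOXA4 to 35.7 and 29.2 TPM at 5 and 0.5 µM (1.31 ± 0.246, limma adjusted p = 0.000964), the highest HOXA4 of all 52 libraries, and HOXA13 to 9.50 and 9.77 TPM (1.296 ± 0.259, limma adjusted p = 0.00188). HOXA4 had fallen under LAQ824, whereas HOXA13 rose under both compounds. Of all genes, 3.43% rose and 2.27% fell under Cpd50. A single member fell under Cpd50. UNC0638 lowered HOXA13 to 0.490 and 1.59 TPM (-1.14 ± 0.259, limma adjusted p = 0.0104). These values rest on 3 and 10 reads, against 51 to 74 reads in the DMSO libraries of the screen. Of all genes, 9.76% fell and 2.37% rose under UNC0638. The HOXA13 call was lost without the 10 µM library or without either DMSO concentration, and without the 1 µM library 7 members were called.

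For the other compounds with no member called by limma, all genes were called at 3.51% (GSKLSD1), 3.41% (SGC-CBP30), 2.70% (Trametinib), 1.41% (LSD-690), 0.587% (LSD-519), 0.465% (PFI-2), 0.0489% (UNC-1215), 0.0428% (PFI-3) and 0.0122% (GSKJ4). At an unadjusted p under 0.05, these compounds had 0 to 2 members each, and the voom fit called 1 member, lower, for GSKLSD1 and 0 for the others.

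N1302 and entinostat, HDAC inhibitors in RH4-titled cells, had 1 library and 1 control at each time, so no test over replicates was possible, and intervals cover counting error only. After 6 h of N1302, 6 of 26 members were lower and 1 higher by more than 2-fold on the log2(TPM + 1) scale, where 30.9% of all genes passed that fold, 19.3% lower and 11.6% higher. HOXB7 read 9.99 TPM against 24.3 TPM in its control, a ratio of 0.411 (95% interval 0.324 to 0.517). HOXA10 read 4.15 against 14.0 TPM, a ratio of 0.295 (0.227 to 0.380), and HOXC4 2.59 against 7.81 TPM, a ratio of 0.332. HOXA4 (0.391) and HOXB4 (0.439) were lower as well, and HOXC11 had 0 reads against 27. HOXC13 read 6.94 against 1.49 TPM, a ratio of 4.65 (3.17 to 6.95). HOXA10 rested on a control that was the highest of all 52 libraries for this gene. HOXA13 read 5.54 TPM and HOXD1 1.01 TPM under N1302. The median of all genes was lower by 0.11 and that of the members by 0.35. Under median-ratio scaling, 3 members were lower and 1 higher past that fold, and the median of all genes stood at 0.03.

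Entinostat, a benzamide inhibitor, moved no member past 2-fold on the log2(TPM + 1) scale at 1 h or 6 h, where 1.24% and 6.08% of all genes passed. It moved 7 members past it at 24 h, 6 higher and 1 lower, where 22.4% of all genes passed, 16.4% higher and 6.06% lower. At 24 h, HOXC13 read 9.32 against 1.48 TPM (ratio 6.28, 4.58 to 8.79), HOXD1 2.85 against 0.391 TPM (7.28, 3.72 to 15.9), HOXB9 6.22 against 1.49 TPM (4.18) and HOXC10 14.9 against 4.97 TPM (3.00). HOXD8 was higher by a ratio of 2.13, and HOXA10 alone was lower past that fold, at 2.81 against 6.70 TPM (0.419). Under median-ratio scaling 7 members were higher past it and 0 lower. HOXA13 read 1.55, 2.38 and 5.48 TPM at 1, 6 and 24 h of entinostat. HOXA4 read 9.13, 13.4 and 5.54 TPM and HOXB7 21.0, 16.1 and 15.6 TPM. The counting interval of the ratio left out 1 for 2 of 26 members at 1 h, 16 at 6 h and 20 at 24 h.

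These experiments share no control library with the screen, so the members can be set beside LAQ824. Of the 12 members that fell under LAQ824, 12 were below control in N1302, where 93.3% of all genes that fell under LAQ824 were. At 24 h of entinostat it was 11 of 12 (74.7% of genes), at 6 h 7 (68.9%) and at 1 h 5. The 3 that rose were above control in N1302 and at 24 h of entinostat, where 79.7% and 78.2% of the genes that rose were. HOXD1 among them had passed the filter only through HDAC inhibitor libraries, N1302 and 24 h entinostat included. Over the 26 members, which share libraries and depth, Pearson's r between LAQ824 and N1302 was 0.85 (0.75 over all genes), and between LAQ824 and 24 h entinostat 0.79 (0.55). WT161 gave 0.81 and 0.80 (0.60 and 0.53 over all genes). The other HDAC inhibitors of the screen gave lower values: 0.28 and 0.36 for MC1568, 0.02 and -0.08 for Merck60, and -0.002 and -0.09 for OJI-1. This order did not hold against 6 h entinostat, the exposure time of the screen. There MC1568 gave 0.63, WT161 0.55, Merck60 0.43, LAQ824 0.43 and OJI-1 -0.01, and GSKJ4, which is not of the HDAC class, gave 0.55. Against N1302, EZ-005, UNC1999 and SGC0946 gave -0.10, 0.07 and -0.13. The bromodomain inhibitors Bromosporin and SGC-CBP30 gave 0.52 and 0.44 against N1302.

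**Figure D5:**
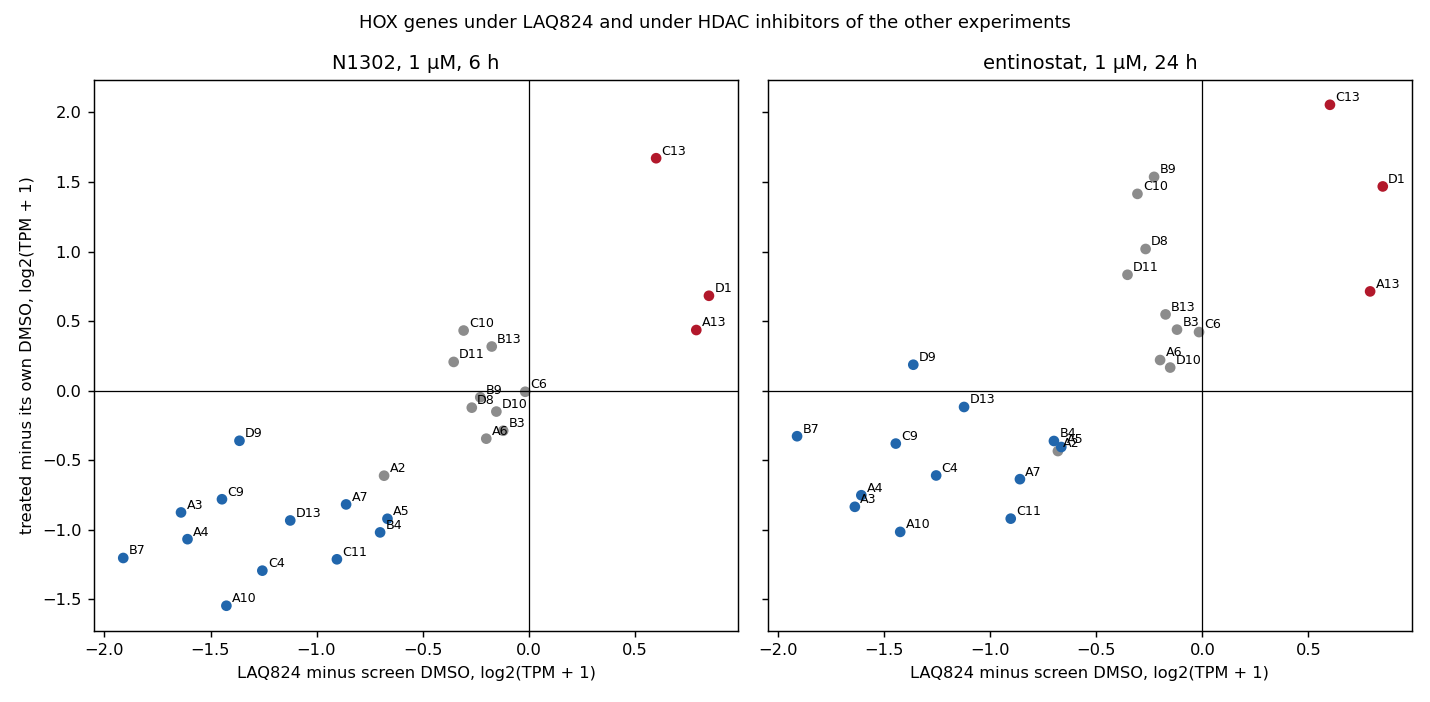
Log2(TPM + 1) change of the tested HOX genes reported under LAQ824 (x axis) against their change under N1302 and under 24 h entinostat (y axis); each point is 1 gene, blue or red where called lower or higher under LAQ824. HOXA3, HOXA4 and HOXA10 lie low in both panels, and HOXC13, HOXD1 and HOXA13 lie high.

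Genes that act with or on HOX genes were counted in the contrast of HDAC against EZH2 and EZH1 inhibitors. Of 8 tested TALE homeodomain cofactors, which bind DNA together with HOX proteins, 2 were higher and 3 lower: PBX4 by 0.74 and MEIS3 by 0.34, and MEIS2 by -0.82, PBX3 by -0.64 and PKNOX1. Of 10 PRC2 subunits, 4 were lower, led by PHF19 (-0.91) and AEBP2 (-0.43). Of 15 PRC1 subunits, 2 were higher, CBX7 (0.75) and CBX8 (0.30), and 4 lower, led by PCGF1 (-0.68) and PCGF2 (-0.57). Of 14 genes of the MLL and DOT1L complexes, AFF1 was higher by 0.30 and MLLT10 lower by 0.62. Of 10 retinoic acid pathway genes, 4 were higher and 2 lower, among them the binding proteins CRABP2 (1.24) and CRABP1 (0.54) and the receptors RXRG (-1.16) and RXRA (-0.43). Of 5 related homeobox genes, MNX1 was higher by 0.76. Of 10 rhabdomyosarcoma markers, 5 were lower, led by FOXF1 (-1.38) and MYOG (-1.20). These shares lie on both sides of the 35.7% of all genes.

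Position was examined last. Of 10 tested genes inside the clusters that are not HOX genes, 0 were called in this contrast, nor were any of the 8 tested noncoding RNAs, several of which are the same genes. Beside the clusters, within 500 kb, 7 of 38 genes were higher and 9 lower, among them PHOSPHO1 (1.15) and COPZ2 (0.66), and IGF2BP1 (-1.16) and UBE2Z (-0.62). PRAC2, named after its values were seen, lies inside the HOXB cluster beside HOXB13 and fell under LAQ824 by 1.49, while HOXB13 itself was not called there, at 21.4 and 21.6 TPM.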

How the data were processed

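Poly-A RNA of FP-RMS cells was sequenced paired-end and, per the study's methods, aligned by the authors to hg19 with STAR and quantified with RSEM, while the labels also name edgeR. The deposited values are TPM, 1 per gene and library, scaled by the authors for length and library. Whole reads could be recovered for 23645 of 23645 genes with a TPM above 0 (tolerance 0.001), which gave the depth of each library and an alternative fit. Exons were compared with GENCODE v44lift37.

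Groups came from the labels. Tests used limma 3.58.1 (lmFit, eBayes with trend) in R 4.3.3 on log2(TPM + 1), for the 16359 genes that reached 1 TPM in at least 2 libraries, with Benjamini-Hochberg adjustment over all of them. All 20 compounds and DMSO shared 1 estimate of the spread. The 2 libraries of a DMSO concentration were averaged: over 10378 genes, the variance beyond effects of concentration and run was 1.02 times the counting noise. Changes by library and counts of libraries below DMSO used the matching concentration. Per-library values under compounds are given for the 12 members with the smallest adjusted p in the HDAC, EZH2, EZH1 and DOT1L comparisons, values in all controls for members with at least 5 TPM in DMSO, and the 2 largest called changes for other compounds. Ratios of single libraries carry exact binomial 95% intervals on reads, for counting error only. Members, lists and tests were chosen with earlier results of these data known. The fits were tested on simulated data, and alternatives are given below. The values of 1 member are not reported here, and counts, sums and medians over members include it.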

Additional observations from a re-analysis of the deposited data

Results flagged for a closer look

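In the 4 RH4-titled DMSO libraries, 2 members had a library far from the others by Dixon's ratio, the gap to the nearest library over the whole range. HOXC13 read 0.734 TPM in the 1 h control and 1.37 to 1.49 TPM in the other 3 (ratio 0.833). HOXD11 read 0.204 TPM in the control of N1302 and 0.481 to 0.528 TPM in the other 3 (ratio 0.852). These were 2 of 52 groups of 4 libraries tested, 26 members in each of 2 groups of controls, and chance alone gives about 1 in 20.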

How the results depend on the processing

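No member call reversed its direction under any alternative run. The median of all genes under N1302 did, from -0.11 to 0.03 with median-ratio scaling. The 47 member calls over the 20 compounds became 29 when a log2 change of at least 1 was also asked for, and 30 to 56 when a library or a DMSO concentration was left out (39 to 56 for single libraries, 30 without either concentration). The 7 calls of HDAC against EZH2 and EZH1 inhibitors became 0 with that fold, with high doses only, low doses only, compound means as units, or within run C5JW5ACXX. They became 3 with a pseudocount of 0.1, 3 with no filter on low values, 4 among genes with a mean TPM of at least 5, and 2 to 10 with a library or HDAC compound left out. The 2 calls of HDAC against DOT1L became 0 under the same 5 settings, 1 with the pseudocount of 0.1, with the mean of at least 5 TPM or with voom, and 0 to 3 with a library or compound left out. Calls between RH41-titled and RH4-titled controls, 6 in all, became 0 with 6 h controls only and 0 to 14 with a library or a DMSO concentration left out (1 to 14 for single libraries). Members past 2-fold went from 7 to 15 (pseudocount 0.1) or 4 (median-ratio scaling) for N1302 and from 7 to 16 for entinostat (pseudocount 0.1). The cause of these shifts was not tested. Fitted on its own samples and DMSO alone, LAQ824 had 20 members called, Cpd50 11, MC1568 7, Trametinib 2, GSKLSD1 1, and the other compounds, Bromosporin, WT161 and UNC0638 among them, 0, where only 4 samples give the spread. The DMSO libraries share replicate numbers across the 2 concentrations: with the replicate as a block 0 members were called, as without it. The deviations of same-numbered libraries from the mean of their own concentration correlated at 0.0719 over the tested genes. Low doses alone and compound means were chosen after seeing the data, as were same-run DMSO libraries, against which the 24 calls of LAQ824, MC1568, Cpd50 and GSKJ4 again numbered 24, with HOXC13 under LAQ824 lost. The reads limit HOXD1, HOXD10 and HOXD11 most, at 1 to 10 reads per DMSO library of the screen.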
